A study of Mus musculus with 10 samples.

Results

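The input libraries of the *Setd1b* H3K4me3 experiment, *Setd1b* cKO against WT, were chosen as the native chromatin that was sequenced without precipitation. Windows of 5 kb on chromosomes 1 to 19 were compared where at least 20 reads fell over the 4 inputs together, which left 471625 of 492344 autosomal windows and of 544879 windows in all. Females were 21 days old, and each pool held about 200 of their germinal vesicle (GV) oocytes, the stage before meiosis resumes. Strain C57BL6 and the alleles *Setd1b* floxed/floxed were common to both groups by the sample labels, and the study's methods give the substrain as C57BL/6OlaHsd. *Setd1b* cKO mice were Gdf9-Cre positive and WT mice Gdf9-Cre negative by the labels, while the methods also count heterozygous females with Cre among WT. Each genotype had input replicates 1 and 4, and these stood beside H3K4me3 libraries of cKO replicates 1, 3 and 4 and of WT replicates 1, 2 and 4, giving 10 libraries in the series. The same replicate number in both genotypes is not stated to mark a shared batch. Pools of oocytes were the only replicates, and the p-values refer to the spread between pools. In limma that spread was in large part shared across the windows, bins or genes tested, since each had only these pools.

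SETD1B is a methyltransferase that places methyl groups on lysine 4 of histone H3. In the cKO, Cre recombinase is made under the promoter of *Gdf9*, an oocyte growth factor gene, and removes the floxed part of *Setd1b* in oocytes from early follicle growth on. Input libraries of native chromatin are made from DNA that micrococcal nuclease has cut between nucleosomes. Their coverage therefore follows how many copies of a sequence the cells carry, how readily the nuclease releases it, how well its reads can be placed in the genome, and base composition. Input coverage cannot tell a changed copy number from a changed release of chromatin, and it does not identify cell types.

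Input coverage was close to even along the autosomes and similar between genotypes, with differences standing out at 3 places. A pair of stretches on chromosome 8, from *Eri1* and from *Mfhas1* to *Cldn23*, had more reads in *Setd1b* cKO. A stretch of 550 kb on chromosome 7 around *Tcerg1l* had fewer reads in WT than its own flanks. A stretch of 200 kb on chromosome 6, in the immunoglobulin kappa variable genes, had fewer reads in *Setd1b* cKO. No loss of input reads was detected at *Setd1b* itself, though counting error alone allowed a loss of up to 30.8% of a window's reads. The window that holds the start of *Gdf9* had more reads in both cKO inputs than in either WT input, as 16.1% of all windows did. It was not called (adjusted p = 1.00, limma).

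RefSeq promoter sequences (assembly GRCm38.p6) are shown for genes at 2 of these places, since each was the start of a gene lying in a stretch that the comparison turned on. Each is the 250 bases before the start in RefSeq, 5′ to 3′ on the gene's strand, with every CG dinucleotide in capitals. CG, which reads the same on both strands, occurred in 92.1% of the 32851 promoters of that length in the table, with a median of 6 per promoter. *Tcerg1l* lies in the chromosome 7 stretch and the predicted gene *Gm19410* in the longer chromosome 8 stretch. *Tcerg1l* had 23 CG in this window (chr7:138397731-138397980, minus strand) and *Gm19410* had 15 (chr8:35765473-35765722, plus strand).
Tcerg1l: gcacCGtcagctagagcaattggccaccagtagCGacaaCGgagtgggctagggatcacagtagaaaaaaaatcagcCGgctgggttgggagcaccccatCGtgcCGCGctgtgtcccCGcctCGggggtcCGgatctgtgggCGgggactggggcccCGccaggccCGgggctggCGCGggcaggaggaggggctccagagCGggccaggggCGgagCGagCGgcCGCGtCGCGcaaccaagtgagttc
Gm19410: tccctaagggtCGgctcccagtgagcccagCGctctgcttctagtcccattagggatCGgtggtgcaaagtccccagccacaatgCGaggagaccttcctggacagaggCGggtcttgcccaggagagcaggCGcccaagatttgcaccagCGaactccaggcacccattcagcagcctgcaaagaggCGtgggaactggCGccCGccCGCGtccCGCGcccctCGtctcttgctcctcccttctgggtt

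The 4 inputs were of similar depth, between 20756128 and 26566505 reads in windows, with 42 to 54 reads in the median compared window. Values are reads per 5 kb window scaled by library size, called input signal below, in which 1 read was worth 0.0386 to 0.0493, and their medians over the compared windows ran from 2.06 to 2.08. The middle 90% of compared windows lay between 1.16 and 2.77 in cKO input 1 and between 1.16 and 2.86 in WT input 4. Input of cKO 1 and input of WT 1 were the most alike pair, with a Pearson correlation of 0.586 across windows, and the other 5 pairs had 0.406 to 0.476. Over these windows the squared difference of cKO 1 and WT 1 was 1.07 times what counting reads alone gives, and it was 1.61 times between the cKO inputs and 1.67 times between the WT inputs. The replicate 4 inputs of cKO and WT differed most of the 6 pairs, at 2.09 times. The difference between genotypes was thus below that within genotypes for replicate 1 and above it for replicate 4.

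Base composition moved with the replicate number. In replicate 1 the mean input signal rose from 1.86 in the lowest of 10 equal groups by GC content to 2.27 in the highest for cKO, and from 1.86 to 2.26 for WT. In replicate 4 it rose from 1.98 to 2.11 for cKO, and it was 2.10 and 2.07 at the same ends for WT. The ratio of cKO to WT across these groups stayed between 0.994 and 1.01 in replicate 1 and ran from 0.946 to 1.02 in replicate 4. Windows with the start of a protein-coding gene had 1.02 and 1.00 times the input signal of other windows in the replicate 1 inputs of cKO and WT, and 0.965 and 0.941 times in replicate 4. Within the highest GC group they had 0.903 to 0.934 times. In a fit corrected for GC content, 1 window and 8 bins of 100 kb were called, among them the window and the 6 bins called below.

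**Figure D1:**
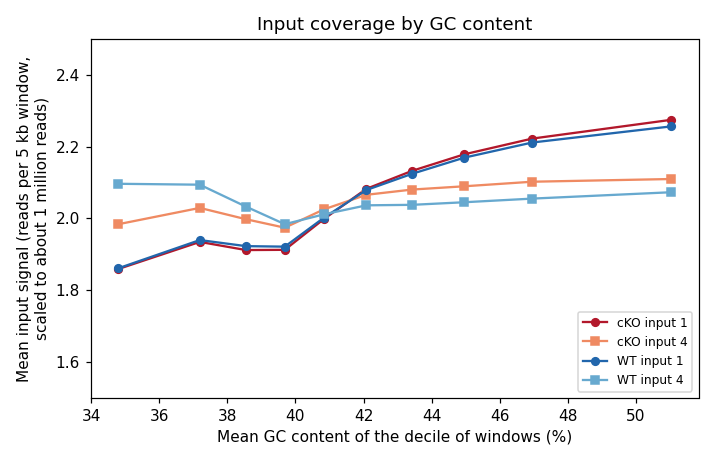
Mean input signal (y axis, reads per 5 kb window scaled by library size) against the mean GC content (x axis, percent) of the 10 equal groups of compared windows, 1 line per library. The y axis starts at 1.5. Both replicate 1 inputs climb from 1.86 to 2.26 or above, while both replicate 4 inputs stay between 1.97 and 2.11.

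The share of all autosomal reads on each chromosome was tested to ask whether whole chromosomes differed in coverage. Both cKO inputs lay on one side of both WT inputs for 5 of 19 autosomes, 26.3% of them. Chromosome 5, which carries *Setd1b*, held 6.25% and 6.14% of reads in cKO inputs 1 and 4, and 5.94% and 6.03% in WT inputs 1 and 4. The ratio of cKO to WT was 1.03 for chromosome 5, the highest, and 0.981 for chromosome 19, the lowest. With 2 libraries a genotype, the two-sided exact permutation test cannot go below p = 0.333, which was the value for chromosome 5. X chromosome windows had 0.828 to 0.890 of the mean autosomal signal in the 4 inputs, and windows of the Y chromosome took 188 to 250 reads per library.

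For single 5 kb windows the comparison asked where native coverage differed between genotypes. Of 471625 windows 1 passed an adjusted p of 0.05 (0.000212%), with limma on log2(signal + 0.1), an intensity trend and Benjamini-Hochberg adjustment. Without adjustment, 20163 windows had p under 0.05, 4.28% of those tested, of which 10251 (2.17%) were higher and 9912 (2.1%) lower in *Setd1b* cKO. The median window had 197 reads over the 4 inputs and a standard error of 0.25 on the log2 scale. The whole-read tests gave 4 called windows with edgeR (21604 with unadjusted p under 0.05) and 0 with DESeq2 (2879 with unadjusted p under 0.05). Both cKO inputs lay above both WT inputs in 16.1% of windows and below them in 15.9%.

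The called window was chr6:70295001-70300000, which holds the kappa variable gene *Igkv8-22* and the predicted gene *Gm11065*. It had 6 and 27 reads in cKO inputs 1 and 4 and 56 and 76 reads in WT inputs 1 and 4. Both cKO libraries were far below both WT libraries, and cKO input 1 was the lower of the pair. The log2 difference was -2.16 ± 0.36 (SE, adjusted p = 0.00225, limma), and the pooled reads gave a ratio of cKO to WT of 0.244 (95% exact conditional interval 0.161 to 0.360, counting error only). The call was lost without cKO input 1 (log2 difference -1.36, adjusted p = 0.303), without WT input 1 (-2.20, adjusted p = 0.0912) and without WT input 4 (-2.12, adjusted p = 0.887).

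No 2 adjacent windows were both called, so there were 0 runs of called windows with limma, edgeR or DESeq2. Runs of at least 4 adjacent windows with unadjusted p under 0.05 in the same direction numbered 9, of which 5 were higher and 4 lower in *Setd1b* cKO. The 5 higher runs all lay between *Eri1* and *Cldn23* on chromosome 8 and held 15, 11, 6, 5 and 4 windows. Among the lower runs, 3 lay in the kappa variable genes on chromosome 6 and held 10, 5 and 5 windows. The remaining one was 4 windows at chr13:9380001-9400000, inside an intron of *Dip2c* and overlapping the non-coding gene *Gm26601*. It had 115 and 122 reads in cKO inputs 1 and 4, and 151 and 230 in WT inputs 1 and 4. The whole of *Dip2c* gave a log2 difference of -0.02.

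Larger units were tested in the same way. In bins of 100 kb with at least 10 compared windows, where the median bin had 3875 reads and a standard error of 0.08, 6 of 23788 bins were called (0.0252%, limma). They were 5 bins higher (0.021%) and 1 bin lower (0.0042%) in *Setd1b* cKO. The higher bins were 2 neighbours at *Mfhas1* and *Gm19410* on chromosome 8 and 3 bins on chromosome 7 around *Tcerg1l*, and the lower bin was in the kappa variable genes. Unadjusted p was under 0.05 in 421 bins (1.77%), with cKO higher in 1.12%. Both cKO inputs lay above both WT inputs in 13.9% of the 100 kb bins. Without the minimum of reads per window, none of these 6 bins was called (adjusted p of 0.361 to 1.00), though their log2 differences were unchanged. edgeR called 8 bins and DESeq2 called 6, and these held 6 and 5 of the bins that limma called. In bins of 25 kb, a size added after seeing the data, 13 of 94957 were called (0.0137%), of which 9 were higher (0.00948%), all on chromosome 8, and 4 lower, all in the kappa variable genes. Unadjusted p was under 0.05 in 3.24% of the 25 kb bins, with cKO higher in 1.72%, and the genotypes did not overlap in 29.8%.

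To give each place its extent, adjacent 25 kb bins were joined where the mean of the same genotype was at least 15% above that of the other, and those stretches were kept that held a called 25 kb bin, or that had at least 3 bins and touched a called 100 kb bin. This gave 4 stretches. They were picked by these input values, so their input values are a description without a test, and the H3K4me3 libraries below were not used to pick them. Flanks are the 100 kb on either side of a stretch.

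The longer chromosome 8 stretch, chr8:35600001-35825000, spans 225 kb and holds most of *Mfhas1*, a regulator of inflammatory signalling, the predicted genes *Gm35021* and *Gm19410*, *1700015I17Rik*, and the end of *Cldn23*, a claudin of tight junctions. Its mean input signal was 3.43 in cKO input 1 and 3.23 in cKO input 4, against 2.30 in WT input 1 and 2.06 in WT input 4. The flanks were at 2.24 and 2.08 in cKO and at 2.13 and 2.10 in WT, so the cKO inputs had 1.53 and 1.55 times their flanks and the WT inputs 1.08 and 0.985 times theirs. The excess was thus in the cKO libraries, and the flanks did not share it. All 45 windows of the stretch had a positive log2 difference, with a median of 0.55 and a range of 0.27 to 1.01. Both cKO inputs were above both WT inputs in 39 of the 45 windows (86.7%, beside 16.1% of all windows), and 39 had unadjusted p under 0.05 (86.7%, beside 2.17%). The stretch was picked for this difference, so nothing is read from these shares.

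The change at the edges of this stretch was spread over a few windows. Between 35585001 and 35590000 the reads were 46 and 50 in cKO inputs 1 and 4, and 44 and 48 in WT inputs 1 and 4. In the window from 35595001, just outside, they were 58 and 72 in cKO, and 36 and 51 in WT. Between 35605001 and 35610000 they were 83 and 88 in cKO, and 57 and 51 in WT. At the far end, the window from 35820001 to 35825000 had 68 and 90 reads in cKO and 45 and 58 in WT, and the next window, from 35825001, had 56 and 53 in cKO and 36 and 38 in WT. The third window beyond the stretch, from 35835001, had 49 and 54 in cKO and 46 and 62 in WT. The windows next to the stretch were thus still higher in cKO on both sides.

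The other chromosome 8 stretch, chr8:35450001-35475000, is 25 kb long and reaches from intergenic sequence into the 3′ part of *Eri1*, which encodes an exoribonuclease. Its mean input signal was 3.75 and 3.11 in cKO inputs 1 and 4 and 2.02 and 2.23 in WT inputs 1 and 4. This was 1.74 and 1.57 times the flanks in cKO and 0.977 and 1.07 times in WT. The window next to it, from 35475001 to 35480000, had 81 and 101 reads in cKO and 50 and 66 in WT, and the one after that had 38 and 42 in cKO and 37 and 54 in WT. Between the pair of stretches, the 25 kb bins from 35500001 to 35600000 had ratios of genotype means of 0.995, 0.982, 1.04 and 1.09.

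The pooled reads of the longer chromosome 8 stretch gave a ratio of cKO to WT of 1.53 (95% interval 1.48 to 1.59, counting error only), and those of the shorter a ratio of 1.59 (1.42 to 1.78). In the fit of 100 kb bins, chr8:35700001-35800000 had a log2 difference of 0.62 ± 0.08 (SE, adjusted p = 1.73e-09, limma), and it stayed called when any 1 input was left out (highest adjusted p = 0.0342). The bin before it, chr8:35600001-35700000, had 0.56 ± 0.10 (adjusted p = 5.42e-05) and was no longer called without WT input 4 (log2 difference 0.45, adjusted p = 1.00). These p-values rest on a spread shared across bins, since each bin has 2 values a genotype.

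The chromosome 7 stretch, chr7:138000001-138550000, contains all of *Tcerg1l*, a gene related to a transcription elongation regulator, with *Gm5650*, *Gm25798* and *Gm45686*. Mean input signal was 2.29 in cKO input 1 and 2.10 in cKO input 4, and 1.48 in WT input 1 and 1.66 in WT input 4. The cKO inputs were level with their flanks, at 0.992 and 0.989 times, and the WT inputs were at 0.635 and 0.689 times theirs. Here the WT libraries stood away from the flanks, unlike on chromosome 8. All 110 windows had a positive log2 difference, with a median of 0.48, and both cKO inputs were above both WT inputs in 79 of them (71.8%, beside 16.1% of all windows).

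At the left edge of the chromosome 7 stretch, the window ending at 138000000 had 57 and 53 reads in cKO inputs 1 and 4 and 48 and 63 in WT, and the first window inside, from 138000001, had 23 and 48 in cKO and 17 and 24 in WT. The window after it, from 138005001, had 57 and 48 in cKO and 32 and 48 in WT, so the replicate 4 inputs were level there and the edge was not placed to a single window. On the right, the window from 138540001 had 46 and 59 reads in cKO and 31 and 31 in WT, and the window from 138550001 had 45 and 45 in cKO and 46 and 44 in WT. Pooled reads gave a ratio of cKO to WT of 1.38 (95% interval 1.34 to 1.42, counting error only).

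The called bins of this stretch were chr7:138100001-138200000, chr7:138200001-138300000 and chr7:138400001-138500000. Their log2 differences were 0.49 ± 0.10, 0.46 ± 0.10 and 0.48 ± 0.09 (SE), with adjusted p of 0.00323, 0.0204 and 0.00132 (limma). The bins between and before them, from 138300001 and from 138000001, were just outside the threshold, at adjusted p of 0.0531 and 0.0783. All 3 calls were lost without cKO input 1 (adjusted p = 1.00 for each) and without cKO input 4 (adjusted p of 0.558, 1.00 and 0.271), and that from 138400001 was also lost without WT input 1 (adjusted p = 0.0741). The log2 difference stayed between 0.39 and 0.58 for the 3 bins when any 1 input was left out.

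The chromosome 6 stretch, chr6:70125001-70325000, lies in the array of kappa light chain variable genes, from *Igkv6-29* and *Igkv8-28* to *Igkv8-21*. These genes are near copies of each other, so reads can be split between them or lost by the authors' mapping filter, and coverage in the array was uneven in all libraries. The mean input signal was 0.462 in cKO input 1 and 0.866 in cKO input 4, against 1.45 and 1.46 in WT inputs 1 and 4. Relative to the flanks the cKO inputs were at 0.301 and 0.552 and the WT inputs at 0.922 and 0.912. The cKO pair was below the WT pair and also spread more than it. Of 40 windows 39 had a negative log2 difference, both cKO inputs were below both WT inputs in 34 (85%, beside 15.9% of all windows), and 26 had unadjusted p under 0.05 (65%, beside 2.1%).

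Pooled reads of the chromosome 6 stretch gave a ratio of cKO to WT of 0.467 (95% interval 0.437 to 0.499, counting error only). The bin chr6:70200001-70300000 had a log2 difference of -1.22 ± 0.18 (SE, adjusted p = 2.82e-07, limma). Its p-value rests on the spread shared across bins, while its cKO inputs were at 0.363 and 0.749 and its WT inputs at 1.38 and 1.34. Without cKO input 1 the log2 difference was -0.78 and the call was lost. DESeq2 did not call this bin either (adjusted p = 1.00), though its log2 difference there was -1.29. The neighbouring bin from 70100001 to 70200000 had a log2 difference of -0.57 (adjusted p = 0.176).

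**Figure D2:**
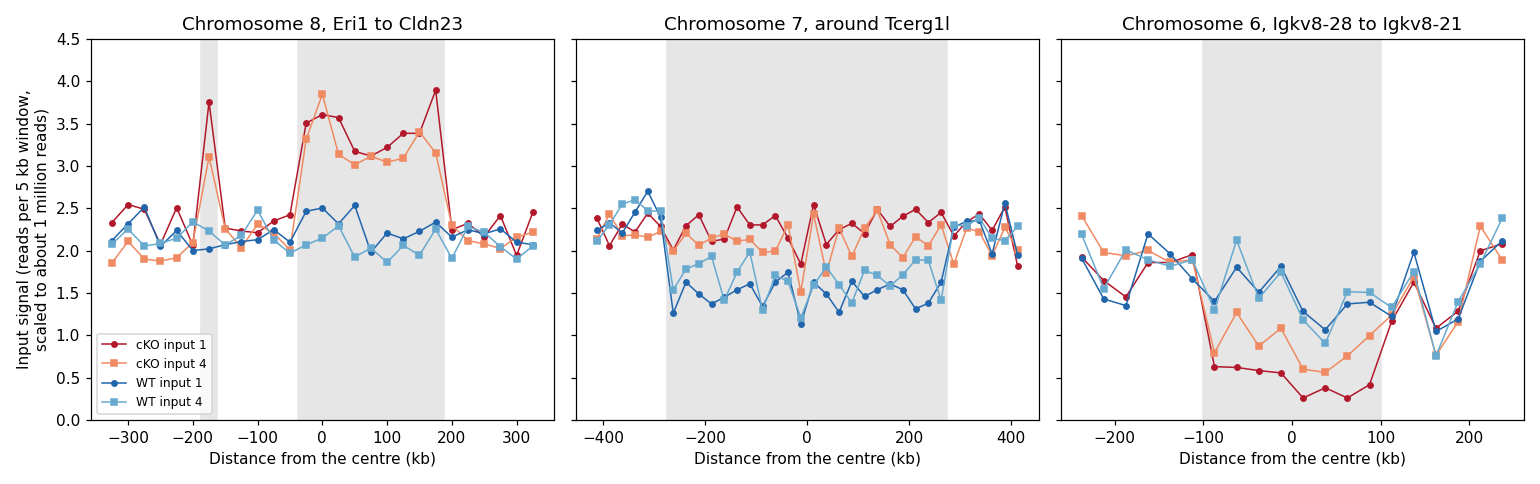
Mean input signal (y axis, reads per 5 kb window scaled by library size) of 25 kb bins along the 3 places, 1 line per library, against the distance from the centre of the shaded stretches (x axis, kb). On chromosome 8 both cKO inputs stand between 3.01 and 3.89 inside the shading and return to the WT level outside it, on chromosome 7 the WT inputs drop, and on chromosome 6 the cKO inputs drop.

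Of the H3K4me3 libraries, cKO replicates 1 and 4 and WT replicates 1 and 4 carry the genotype and number of an input and may share its pool, and cKO replicate 3 and WT replicate 2 have no input here. Reads per window in a stretch over reads per window in its flanks were compared between 3 cKO and 3 WT libraries with a two-sided exact permutation test, which cannot go below p = 0.1. In the longer chromosome 8 stretch the H3K4me3 ratio was 1.68, 1.64 and 1.57 in cKO replicates 1, 3 and 4, and 1.21, 1.17 and 1.10 in WT replicates 1, 2 and 4. The genotypes did not overlap (1.63 ± 0.06 against 1.16 ± 0.06, SD, n = 3, exact permutation p = 0.1). In the chromosome 7 stretch the ratio was 0.853, 0.858 and 0.839 in cKO and 0.389, 0.677 and 0.373 in WT. Again the genotypes did not overlap (0.850 ± 0.010 against 0.480 ± 0.171, SD, n = 3, exact permutation p = 0.1). The share of other places in the genome that separate in this way was not computed.

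The other stretches were less clear in the H3K4me3 libraries. In the shorter chromosome 8 stretch, which had 29 to 351 H3K4me3 reads a library, the ratios were 0.337, 0.957 and 0.925 in cKO and 0.145, 0.450 and 0.409 in WT, and the ranges overlapped (exact permutation p = 0.3). In the chromosome 6 stretch they were 1.60, 0.414 and 0.768 in cKO and 0.816, 1.26 and 1.28 in WT (exact permutation p = 0.6). The highest of these was cKO replicate 1, whose input had the lowest coverage there.

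**Figure D3:**
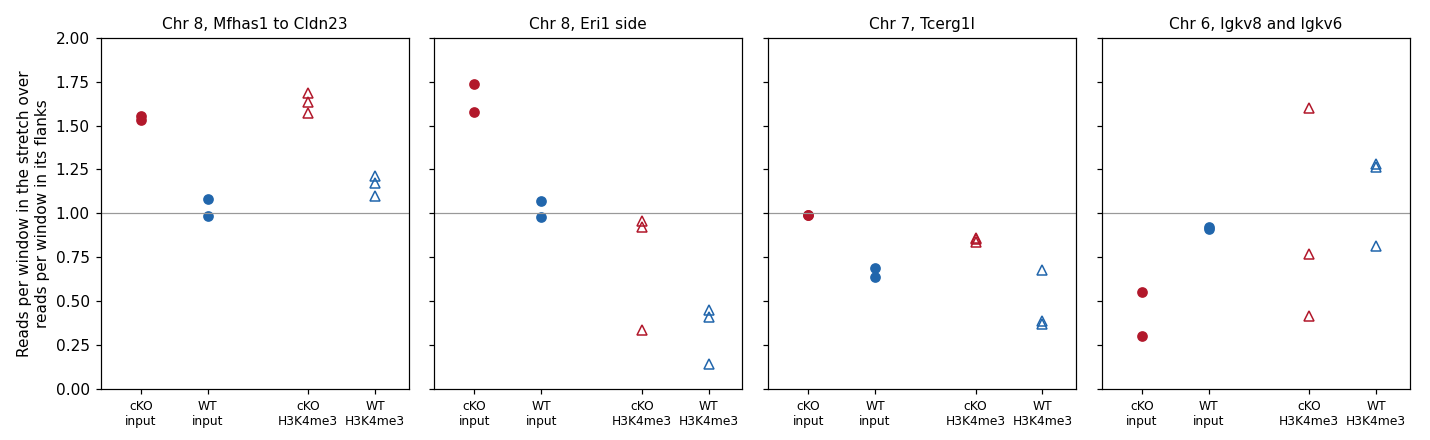
Reads per window in each stretch divided by reads per window in its 100 kb flanks (y axis), 1 symbol per library, filled circles for the 2 inputs and open triangles for the 3 H3K4me3 libraries of each genotype. The grey line marks equal coverage of stretch and flanks, and on chromosome 8 the longer stretch has every cKO library at 1.53 or more and every WT library at 1.21 or less.

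A limma fit made here on the authors' H3K4me3 score (no trend, adjusted p under 0.05) called 3043 of 471625 compared windows higher (0.645%) in *Setd1b* cKO. It called 2135 lower (0.453%). These are not the study's own calls, which cover a larger share of the genome. In the longer chromosome 8 stretch 8 of 45 windows were higher (17.8%), and in the chromosome 7 stretch 5 of 110 were higher (4.55%). None of the windows of the 4 stretches was lower, and none in the chromosome 6 or the shorter chromosome 8 stretch was higher. The part of input coverage in these H3K4me3 differences was not tested. Over all compared windows, stretches included, the median input log2 difference was 0.01 in windows higher in H3K4me3, 0.03 in windows lower in H3K4me3 and 0.00 over all windows. Unadjusted input p under 0.05 with cKO higher was seen in 2.76% of the higher and 2.44% of the lower H3K4me3 windows, beside 2.17% of all. With cKO lower it was seen in 1.71% and 1.55%, beside 2.1% of all.

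At the level of genes, the mean input signal over compared windows was tested for 20498 of 20780 autosomal protein-coding genes. None was called by limma (0%), with a median standard error of 0.11 and 6.20 degrees of freedom against 47576 in the fit of 100 kb bins, while 809 had unadjusted p under 0.05 (3.95%), 497 with cKO higher (2.42%) and 312 with cKO lower (1.52%). edgeR and DESeq2 on whole reads each called 3 genes, and these were *Gm19410*, *Mfhas1* and *Tcerg1l* in both. *Gm19410* had a signal of 3.67 and 3.26 in cKO inputs 1 and 4 and of 2.34 and 2.05 in WT inputs 1 and 4. *Mfhas1* had 3.39 and 3.23 in cKO and 2.36 and 2.17 in WT. *Tcerg1l* had 2.22 and 2.05 in cKO and 1.48 and 1.58 in WT. In limma these genes had log2 differences of 0.64, 0.53 and 0.46 and an adjusted p of 1.00 each, and in edgeR 0.65 (adjusted p = 3.72e-05), 0.54 (adjusted p = 3.72e-05) and 0.47 (adjusted p = 0.000304).

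*Setd1b* (ENSMUSG00000038384.16, chr5:123142193-123168629, plus strand, GRCm38) was examined because the cKO deletes part of it. Input signal averaged over its 6 windows was 2.11 and 2.13 in cKO inputs 1 and 4 and 2.09 and 1.79 in WT inputs 1 and 4. Both cKO inputs were above both WT inputs, as in 17.1% of all genes, and WT input 1 lay close to the cKO inputs. The log2 difference of 0.13 did not pass the test (95% interval -0.15 to 0.41, adjusted p = 1.00, limma). Pooled reads, 603 in cKO and 533 in WT, gave a ratio of 1.10 (95% interval 0.982 to 1.24, counting error only).

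Of the 6 windows over *Setd1b*, each of which holds at least 1 exon of the gene, 0 had both cKO inputs below both WT inputs, beside 15.9% of all windows, a share at which so few windows tell little. The window with the start, chr5:123140001-123145000, had 47 and 42 reads in cKO inputs 1 and 4, and 34 and 20 in WT. Its ratio was 1.61 (95% interval 1.14 to 2.30) and its log2 difference 0.67 (unadjusted p = 0.0396, adjusted p = 1.00, limma), the highest in the gene, though the signals of the genotypes overlapped. The next window, from 123145001, had 42 and 54 reads in cKO and 55 and 39 in WT. The window from 123150001 had 50 and 49 in cKO and 46 and 59 in WT, and gave the lowest ratio in the gene, 0.921 (95% interval 0.692 to 1.22). The remaining windows had ratios of 0.976, 1.20 and 1.22.

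The precision bounds how much sequence could be missing. Outside the first window, the lower ends of the intervals on pooled reads allow at most a loss of 9.78% to 30.8% of a window's reads, and the largest of these equals 1.54 kb of a 5 kb window at even coverage. These bounds cover counting error only and hold for single windows, so a deletion that reaches across neighbouring windows could be longer. On the limma scale, which includes the spread between pools, the lowest end of a window's 95% interval was -0.59 in log2 for the same window. The length of the floxed segment and its place in the gene are not given in the sources used here. A deletion within these limits was not detectable at this depth.

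The H3K4me3 libraries gave another picture at the start of *Setd1b*. In the window from 123145001 the H3K4me3 score was 2.17, 3.21 and 3.25 in cKO replicates 1, 3 and 4 and 8.34, 9.69 and 7.37 in WT replicates 1, 2 and 4 (2.88 ± 0.61 against 8.47 ± 1.16, SD, n = 3, exact permutation p = 0.1, the smallest this design gives). In the window with the start it was 4.36 ± 0.38 in cKO and 7.11 ± 0.86 in WT (SD, n = 3, exact permutation p = 0.1). Both windows had the genotypes apart in H3K4me3, while the input ratio of the former was 0.997 (95% interval 0.743 to 1.34). The window before the gene, from 123135001, was apart too, with 5.39, 6.91 and 5.91 in cKO and 9.60, 9.79 and 7.91 in WT. The other windows over *Setd1b* overlapped (exact permutation p of 0.2 to 0.9). The share of all windows that separate in this way was not computed.

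*Gdf9* (ENSMUSG00000018238.6, chr11:53431023-53437904, plus strand) was examined as the source of the promoter that drives Cre. The window with its start, chr11:53430001-53435000, also holds the start of the neighbouring *Uqcrq*, a subunit of respiratory complex III. It had 74 and 77 reads in cKO inputs 1 and 4 and 44 and 48 reads in WT inputs 1 and 4, with input signals of 3.42 and 3.00 against 2.17 and 1.85. Both cKO libraries were above both WT libraries, as in 16.1% of all windows. The log2 difference was 0.65 ± 0.22 (SE, unadjusted p = 0.00291, adjusted p = 1.00, limma), and by unadjusted p it was window 1001 of 471625. Pooled reads gave a ratio of 1.60 (95% interval 1.23 to 2.10, counting error only).

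The windows on either side of the *Gdf9* start had lower ratios, and their difference from the start window was not tested. The preceding window, from 53425001, which lies in *Uqcrq*, had 50 and 57 reads in cKO and 63 and 50 in WT, a ratio of 0.925. The following window, from 53435001, with the rest of *Gdf9*, had 45 and 67 in cKO and 44 and 45 in WT, a ratio of 1.23 (95% interval 0.922 to 1.64), an interval that includes the ratio of the start window. Over the gene both cKO inputs (2.75 and 2.80) were above both WT inputs (2.17 and 1.79), as in 17.1% of genes. The log2 difference was 0.47 (95% interval 0.20 to 0.74, unadjusted p = 0.00513, adjusted p = 1.00, limma), and it was not called by any of the other settings. The H3K4me3 score in the start window was 9.99, 12.6 and 9.52 in cKO and 7.30, 7.94 and 7.13 in WT (exact permutation p = 0.1). The length of the *Gdf9* sequence in the Cre transgene is not given in the sources used here.

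**Figure D4:**
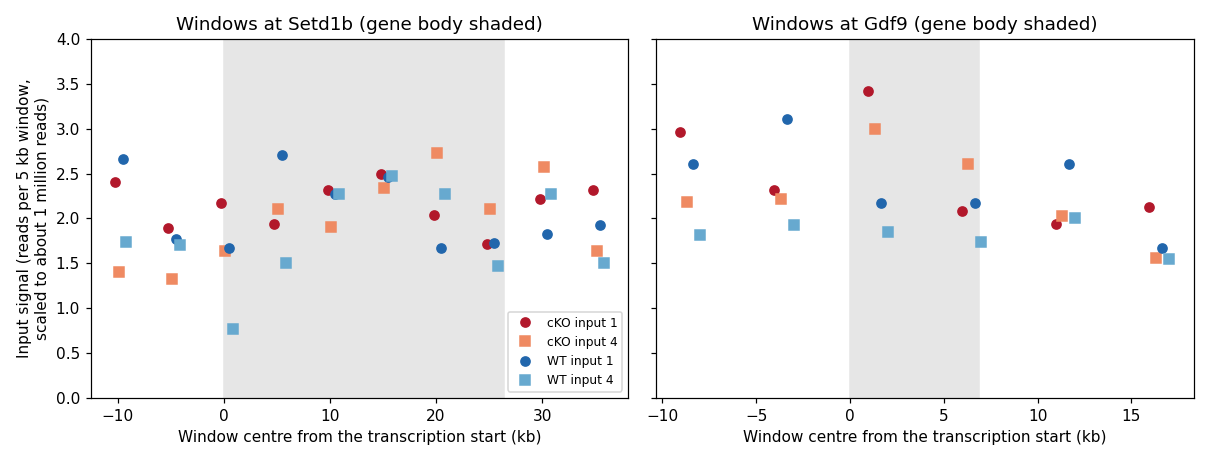
Input signal of the 5 kb windows over *Setd1b* and *Gdf9* and the 2 windows on either side (y axis, reads per window scaled by library size) against the distance of the window's centre from the transcription start (x axis, kb), 1 symbol per library, moved slightly sideways to be visible. The gene body is shaded, and only the *Gdf9* start window has both cKO inputs (3.42 and 3.00) above both WT inputs (2.17 and 1.85).

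Genes of the H3K4 methylation machinery were read for comparison. All 12 of the listed methyltransferases and subunits, *Setd1b* among them, were compared and none was called, with 0 at unadjusted p under 0.05, where 3.95% of all genes were. Their median log2 difference was 0.07, beside 0.01 over all genes, and ran from -0.12 in *Rbbp5*, a core subunit, to 0.21 in *Dpy30*, another. *Setd1a*, the closest relative of *Setd1b*, had 2.40 and 2.30 in cKO inputs 1 and 4 and 2.18 and 2.26 in WT. *Kmt2b*, which encodes MLL2, had 2.33 and 2.11 in cKO and 2.44 and 2.00 in WT.

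Of 10 oocyte genes, *Gdf9* had unadjusted p under 0.05 (10%, beside 3.95% of all genes) and none was called. The median log2 difference was 0.06. The lowest value was -0.13 for *Zp1*, a zona pellucida gene, with 2.36 and 1.88 in cKO and 2.13 and 2.51 in WT. *Kit*, the receptor of stem cell factor, had a log2 difference of 0.02.

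In repeated gene arrays the median input signal was 1.72 to 1.98, beside 2.14 over all genes. Near-identical copies can share reads, so values of single members are uncertain. Among 1125 olfactory receptor genes (*Olfr*) 16 were higher and 45 lower in cKO at unadjusted p under 0.05, 5.42% in all beside 3.95% of all genes (2.42% higher and 1.52% lower). Their median log2 difference was -0.04. The extremes were *Olfr926* at -0.78 and *Olfr317* at 0.58. Among 179 compared *Vmn1r* genes, which encode vomeronasal receptors, 5 were higher and 4 lower (5.03% in all, beside 3.95% of all genes), from -0.69 in *Vmn1r129* to 1.28 in *Vmn1r120*. *Vmn1r120* rests on 11 and 15 reads in cKO and 6 and 2 in WT. Of 113 compared *Vmn2r* genes none passed an unadjusted p of 0.05, with *Vmn2r33* at -0.65 and *Vmn2r38* at 0.71.

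In the smaller arrays, none of 7 *Obox*, 5 *Pramel* or 11 *Skint* genes had unadjusted p under 0.05. *Obox3* and *Obox8* spanned -0.01 to 0.32, *Pramel4* and *Pramel5* -0.21 to 0.14, and *Skint9* and *Skint7* -0.21 to 0.07. Of 4 *Oog* genes *Oog2* (25% of them, beside 3.95% of all genes) had unadjusted p under 0.05 with a log2 difference of -0.35, and *Oog3* was highest at 0.19. Of 10 *Speer* genes 2 were higher at unadjusted p under 0.05 (20%, beside 2.42% of all genes), with *Speer1* lowest at -0.60 and *Speer4f2* highest at 0.36. *Sfi1* had no compared window. No member of any array was called by limma.

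Of loci where mouse substrains can differ in copies, 3 were compared, and all were covered in both genotypes in the sequence that GRCm38 holds. Sequence absent from that assembly cannot be seen here. *Nnt*, a mitochondrial transhydrogenase, had 2.23 and 2.18 in cKO and 1.92 and 2.22 in WT, with a log2 difference of 0.09. *Ide*, the insulin-degrading enzyme, had 0.08. *Fgfbp3*, which lies in a single window of 201 reads, had 3.01 and 2.26 in cKO and 1.97 and 1.47 in WT, a log2 difference of 0.59 (unadjusted p = 0.0184, adjusted p = 1.00, limma).

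The label of the cells was read from H3K4me3 at the start windows of marker genes, as a sum of the authors' score over each list. For 9 oocyte genes the sum was 47.8 to 50.0 in cKO and 54.3 to 59.8 in WT, and for 3 blood genes it was 2.91 to 3.95 in cKO and 3.00 to 4.08 in WT. For 6 granulosa cell genes it was 25.6 to 26.2 in cKO and 18.4 to 19.6 in WT, and for 3 theca or stroma genes 14.9 to 19.9 in cKO and 11.7 to 13.6 in WT. The lists differ in length, so the sums are not comparable between lists. Per gene, library means were 5.31 to 6.64 for oocyte genes and 3.89 to 6.64 for theca or stroma genes. They were 3.06 to 4.36 for granulosa cell genes and 0.970 to 1.36 for blood genes. Of all the marker genes, 1 had a library with 0 reads at its start, the blood gene *Hbb-bs*. The blood sums overlapped between genotypes and the others did not, where 3 libraries against 3 cannot give an exact permutation p below 0.1, and the share of other lists or genes that separate in this way was not computed. Members of a list did not all move with its sum. *Gdf9* had 9.52 to 12.6 in cKO and 7.13 to 7.94 in WT, opposite to the oocyte sum, and the genotypes overlapped at *Nobox* and *Figla*, at the granulosa cell genes *Amh*, *Fshr* and *Amhr2*, and at *Col1a1* and *Acta2* of the theca or stroma list. The mark also sits at starts of genes that are not expressed, and the part of other cells in the input differences was not tested.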

How the data were processed

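H3K4me3 and input libraries were made by ULI-nChIP-seq. Reads were trimmed with Trim Galore 0.4.2 and mapped with Bowtie2 2.2.9 to GRCm38, mappings of low quality were removed, and non-overlapping 5 kb windows were quantified in SeqMonk by the authors. The deposited input values are a signal, reads per window scaled by library size, and the deposited H3K4me3 values are a score, the enrichment-normalized RPKM, which can be below 0. How duplicate reads were treated is not given in the sources used here. The authors left out windows of high input, by their methods those above a limit in any input. In the table it was the mean of the 4 inputs that did not exceed 4.00, while single inputs reached 5.78, and 214 autosomal windows were not in it, so gains that bring the mean above this cannot be seen.

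All input values were whole multiples of the value of 1 read (100%, tolerance 0.01 reads), which gave reads, and H3K4me3 values were so too once the value of a window with 0 reads was subtracted. Every column was mapped to a sample by its name. Input was tested with limma 3.58.1 in R 4.3.3 on log2(signal + 0.1) with an intensity trend, on all compared units, two-sided, with Benjamini-Hochberg adjustment and a threshold of 0.05. A fold change on this scale understates that of low windows. edgeR 4.0.16 and DESeq2 1.42.0 were run on whole reads. The limma fits were also run on simulated data, where few changed windows, nearly all changed 100 kb bins and a minority of the smaller gene changes were recovered. The simulated reads had the same extra spread in all units of a kind and no GC trend by replicate, unlike the inputs. Recovery in the real data can therefore differ. edgeR and DESeq2 were not simulated. Ratios of pooled reads have 95% exact conditional binomial intervals, and exact permutation tests were run in scipy 1.17.1. Gene positions are from GENCODE M21, and the last window of each chromosome ended at its length in GRCm38. The named items were the windows of *Setd1b* and *Gdf9*, gene lists (H3K4 methyltransferases, oocyte genes, substrain loci and repeated arrays) by counts and their extremes, called windows and bins, and the longest runs. *Eri1*, *Mfhas1*, *Gm19410*, *Cldn23*, *Tcerg1l* and *Dip2c* were named for their place in these, and *Setd1a*, *Kmt2b*, *Kit*, *Nnt* and *Ide* were chosen after their values were seen. Part of the substrain loci is not reported here. Members and lists were chosen with earlier results of these data known. Bins of 25 kb and the rule for stretches were chosen after seeing the data. Alternatives were another pseudocount (0.02 or 0.5), no trend, other scalings, GC correction, other minimum reads, a replicate block and leaving out each library.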

Additional observations from a re-analysis of the deposited data

How the results depend on the processing

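Called windows, 1 in the fit reported, were 4 with edgeR, 0 with DESeq2, 2 with a pseudocount of 0.5, 0 after quantile normalization, 61 without the minimum of reads, and 1 to 15 with 1 library left out (2 without cKO input 1, 5 without cKO input 4, 15 without WT input 1 and 1 without WT input 4). The 61 were 34 higher and 27 lower in cKO, and none was the window called above. The call of that window was also lost without the intensity trend (adjusted p = 0.159), at an unchanged log2 difference of -2.16. edgeR added chr3:24970001-24975000 in an intron of *Naaladl2* and 2 windows of the kappa variable genes. Called 100 kb bins, 6 in the fit reported, were 2 with at least 100 reads per window, 13 as 25 kb bins and 2 to 8 with 1 library left out (2 without cKO input 1 and 3 without cKO input 4). Those lost with at least 100 reads were the bins from 35600001 on chromosome 8 and from 138100001 and 138200001 on chromosome 7 (adjusted p of 0.0618, 0.0576 and 0.0649), and the bin on chromosome 6 had too few windows to test. Median centring lost that from 138200001 (adjusted p = 0.0779). Without the minimum of reads 6 bins were called, and none of them was among the 6 above. Called genes, 0 by limma, were 3 with edgeR and 3 with DESeq2. Runs of called windows numbered 0 to 1 with 1 library left out, the 1 being without cKO input 4. A library left alone in its genotype was assumed to vary like the other genotype. With the replicate number as a block there were 5 called windows, 1 run and 11 bins, and with the block and GC correction together 5 windows, 1 run and 10 bins. The replicate block changed no other call. The difference between replicates 1 and 4 correlated with r = 0.0853 across windows between the genotypes, with 2 pairs, and no source gives the number as a shared batch, so it was not taken to pair the libraries, although the GC trend moved with it. For *Setd1b* and *Gdf9* all 16 alternatives kept the direction and none gave a call, with log2 differences of 0.02 to 0.23 and of 0.34 to 0.60. The cause of these changes was not tested. Depth limits single windows to large differences, at a median standard error of 0.25, and intervals on reads cover counting error only.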

Other observations

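Among all compared 25 kb bins, 15 stretches of at least 4 adjacent bins were at least 15% higher in *Setd1b* cKO and 22 at least 15% higher in WT, of which 3 held or touched called bins. The longest of the rest were 2 stretches of 300 kb each on chromosome 5, chr5:94250001-94550000 and chr5:95150001-95450000, in arrays of predicted genes. The former had mean input signals of 0.391 and 0.422 in cKO inputs 1 and 4 and 0.664 and 0.413 in WT inputs 1 and 4. The latter had 0.324 and 0.311 in cKO and 0.590 and 0.406 in WT. A stretch at chr9:46950001-47050000 had 4.05 in cKO input 1 and 2.62 to 2.83 in the other 3 inputs.

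Coverage was at least 1.3 times the median of the 100 kb bins in all 4 inputs in 2 of 23764 bins with known sequence. At chr13:12800001-12900000, which holds *Prl2c3* of the prolactin family, the input signal was 3.28 and 3.31 in cKO inputs 1 and 4 and 2.98 and 3.16 in WT inputs 1 and 4. At chr8:99600001-99700000 it was 2.77 and 3.06 in cKO and 2.80 and 3.09 in WT. Both genotypes shared these levels.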
